A study of Mus musculus with 16 samples.

Results

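Genes of the complement cascade, of blood coagulation and fibrinolysis, and of the serpin family of protease inhibitors were examined in whole colon of WT and Smarcad1-KO mice with and without colitis. The members were all gene names in the 4 deposited tables that matched a fixed set of names: Serpin genes, C1q, C1r, C1s, C2, C3, C4b, C6 to C8, complement factors, the coagulation factors F3, F5, F7, F10, F11 (with F11r) and F13, and Plat, Plaur, Vwf, Thbd, Procr, Pros1, Proz, A2m and Tfpi. This gave 39 of the 5171 distinct genes in the tables. Each table holds only the genes that the authors called at a false discovery rate of 0.05 in one comparison, so a gene of these families entered only if it was called at least once, and the 39 are not all complement, coagulation and serpin genes of the mouse.

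RNA was sequenced from the central part of the colon of male C57BL/6 mice, as whole tissue. KO mice lack exons of Smarcad1, a chromatin remodeler, through Vil-Cre, a recombinase driven by the villin promoter and hence active in the intestinal epithelium and not in stroma or blood cells. The 4 groups were WT control (3 libraries), KO control (3), WT colitis (5) and KO colitis (5), and the colitis groups received 1% dextran sodium sulfate (DSS), a polymer that erodes the colonic mucus, in the drinking water for 15 days. Mice of all groups, controls included, carried a microbiota enriched by exposure to mice of another facility for 2 weeks. The KO comes from a single floxed line.

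Complement is a chain of plasma proteases and binding proteins. In the classical pathway C1q binds antibody or cell debris and its partner proteases C1r and C1s cleave C4 and C2, in the alternative pathway factor B works with C3 itself, and both converge on C3 and then on the terminal components that form a membrane pore. Coagulation factors likewise activate each other in a chain, and serpins are suicide inhibitors that trap proteases of complement, coagulation, fibrinolysis, granulocytes and lymphocytes. The liver makes most of the plasma pool of these proteins, while macrophages, fibroblasts and epithelium make some of them locally in the gut.

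The values are the authors' group means of log2 RPM (reads scaled to the total of the library in M reads), without any spread between libraries, so that no difference below was tested here. A gene is said to have risen or fallen only where the authors' table for that comparison lists it, and "listed" is used in this sense. Smarcad1 was listed as lower in KO, with a log2 difference of −1.18 without and −1.13 with colitis. The geometric mean library size was between 8.005 M and 10.1 M reads, and 3 reads per library corresponded to between −1.75 and −1.42 log2 RPM. Of the members, 5 were at or under 3 reads in both control groups (F10, A2m, Serpina3i, Serpina3m and Serpina10), and C6 was so in WT control. Fold changes against such means are given as lower bounds, computed against a group mean of 3 reads per library.

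Markers of some cell types rose in colitis, while those of others fell or were in no table. All 6 macrophage and monocyte markers in the tables, of 8 chosen, were listed as higher in colitis in both genotypes, and their summed level went from 594 RPM in WT control and 624 RPM in KO control to 1448 RPM in WT colitis and 1431 RPM in KO colitis. All 6 neutrophil markers in the tables, of 7, were higher as well, with sums of 95.9 and 102 RPM in control, 395 RPM in WT colitis and 286 RPM in KO colitis. Most of the control sum is Ly6g, which changed by 1.17 in WT and 1.26 in KO, and the median change of the 6 was 5.48 in WT and 3.94 in KO. Of the 6, 2 were at or under 3 reads in WT control and 3 in KO control. The medians use the deposited means and are not lower bounds. The 5 fibroblast markers in the tables, of 6, summed to 1375 and 1341 RPM in control, 2680 RPM in WT colitis and 2023 RPM in KO colitis. The liver markers Alb and Ttr, the only ones in the tables of 5 chosen, summed to 49.97 and 52.8 RPM in control and to 17.7 and 32.0 RPM in WT and KO colitis, and none of the 8 epithelial and none of the 5 platelet markers was in any table. Among the other lists, 2 T cell markers in the tables (of 6 for T and B cells) rose, from 3.07 to 13.0 RPM in WT and from 2.19 to 13.2 RPM in KO, and 2 smooth muscle markers (of 5) summed to 3619 RPM in WT control, 3358 RPM in KO control, 2345 RPM in WT colitis and 2316 RPM in KO colitis. Of the 5 mast cell markers 4 rose and 1 fell in WT, with a sum of 186 RPM in control and 120 RPM in colitis, and in KO 3 rose and 1 fell, with sums of 183 and 141 RPM. Most of each of these sums is Kit, the marker that fell, by 0.91 in WT and 0.63 in KO. The median change of the 5 was 3.10 in WT and 1.80 in KO, again from the deposited means. Of the 5, 3 were at or under 3 reads in WT control and 2 in KO control. The WT median is that of Mcpt4, which is among them. The endothelial marker Tek, the only one of 6 in the tables, was listed as lower in KO (−0.46, with −0.19 in WT). The part of these cells in the results below was not tested, and in whole tissue fewer cells of a type and less RNA per cell cannot be told apart.

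In colitis most of the members rose. In WT mice 34 of 39 were listed as higher (87.2%), where 36.6% of all genes in the tables were, and 2 as lower, where 26.4% of all genes were. In KO mice 31 were listed as higher (79.5%) beside 44.8% of all genes, and 0 as lower beside 33.6%. A mean higher by at least 1 log2 was seen for 23 members in WT (18.4% of all genes) and 17 in KO (16.0% of all genes). A mean lower by at least 1 was seen for 2 members in WT (13.0% of all genes) and 1 in KO (12.6% of all genes). The median change of the 39 was 1.11 in WT and 0.91 in KO, beside 0.13 and 0.19 over all genes. The members were required to be in a table, as were the genes they are set beside. The colitis tables of both genotypes listed 28 members, each as higher, while 8 were listed in WT alone and 3 in KO alone.

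**Figure D1:**
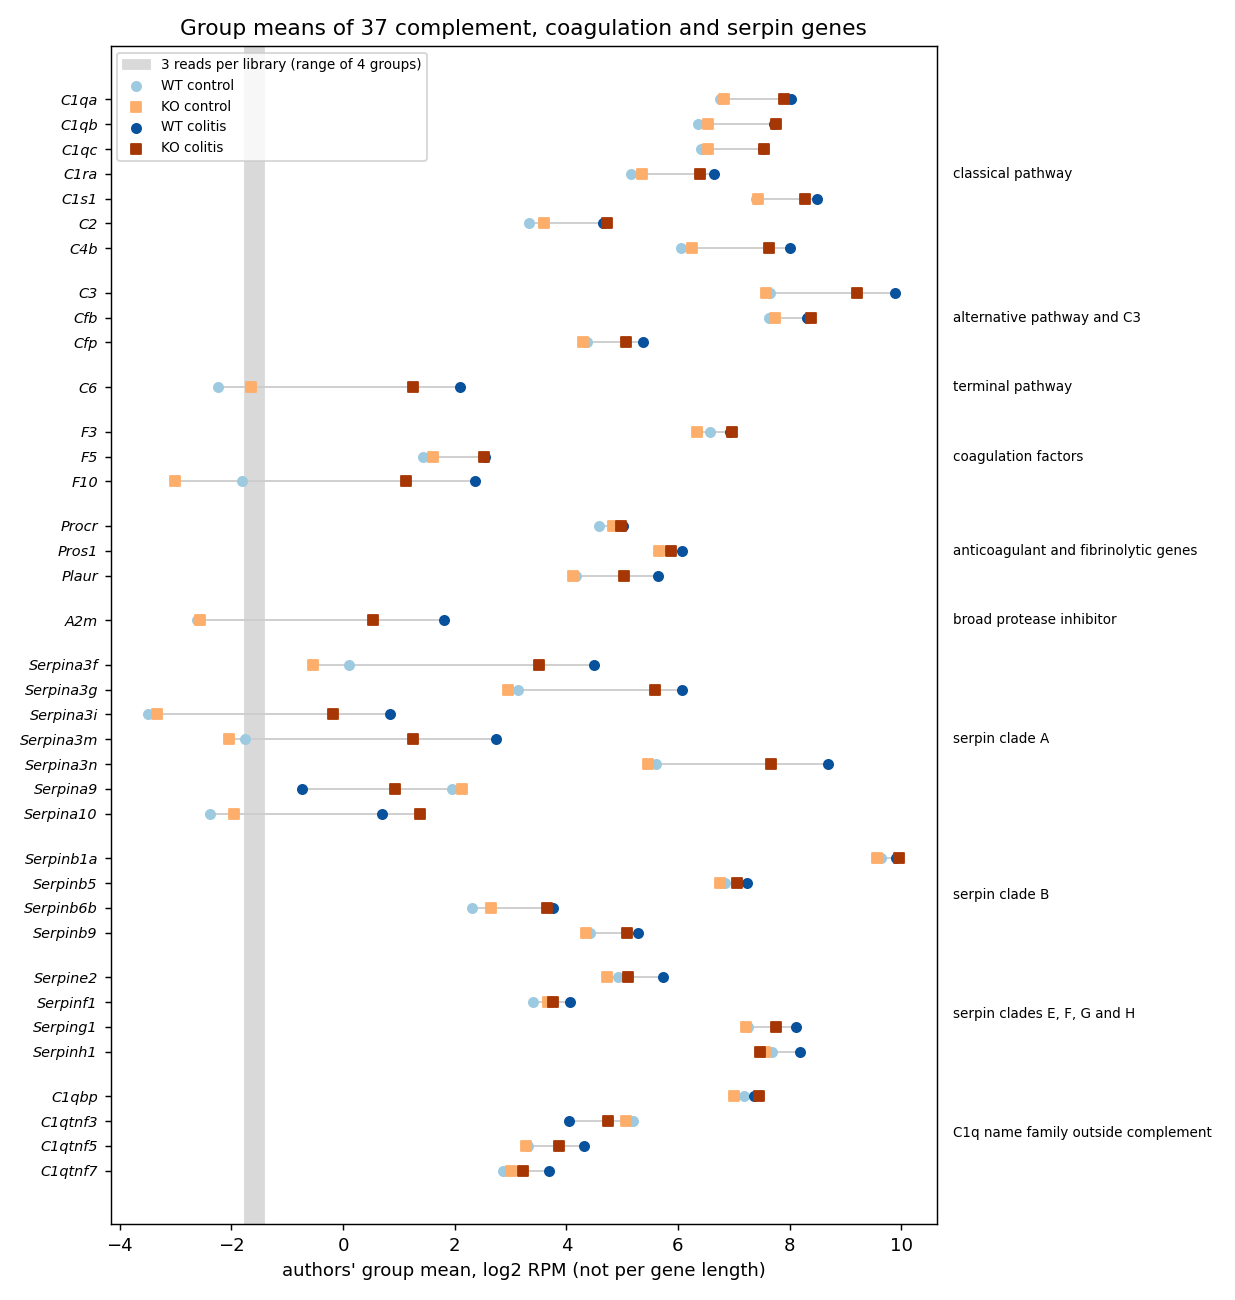
Authors' group means (log2 RPM, horizontal axis) of 37 members, grouped by role, with blue circles for WT and orange or brown squares for KO, pale in control and dark in colitis; the grey band is the level of 3 reads per library in the 4 groups. The dark symbols lie to the right of the pale ones in nearly every row, while Serpina9 and C1qtnf3 show the opposite order and Serpinh1 does so in KO.

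The classical pathway rose as a block. All 7 members (C1qa, C1qb, C1qc, C1ra, C1s1, C2 and C4b) were listed as higher in both genotypes, with a median change of 1.33 in WT and 1.08 in KO. The 3 chains of C1q, which are encoded side by side within 18.7 kb of chromosome 4, moved nearly in step. C1qa had group means of 6.75 log2 RPM in WT control, 6.82 in KO control, 8.03 in WT colitis and 7.90 in KO colitis, a 2.42-fold rise in WT and a 2.12-fold rise in KO. C1qb went from 6.36 to 7.71 in WT and from 6.53 to 7.76 in KO, and C1qc from 6.41 to 7.52 and from 6.54 to 7.54. Per kb of exon, C1qa was the most abundant of the 3 chains in every group, at 6.70 log2 RPM per kb in WT control and 7.97 in WT colitis, and C1qc the least, at 5.46 and 6.58.

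The proteases that act after C1q followed. C1ra, the C1r protease, had means of 5.16 in WT control, 5.35 in KO control, 6.64 in WT colitis and 6.40 in KO colitis, which is a 2.80-fold rise in WT and a 2.08-fold rise in KO. C1s1, the C1s protease, rose by 1.08 and 0.84. C2, the protease subunit of the C3 convertase, had means of 3.32, 3.61, 4.66 and 4.72 in the same order of groups, so both genotypes ended at close to the same level. C4b, which supplies the other subunit, had the largest rise of the pathway, from 6.06 to 8.01 in WT and from 6.26 to 7.63 in KO. The rise was 3.87-fold in WT and 2.60-fold in KO.

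Some of these values can hold reads of a neighbour or copy. Of the stretches of 100 bases in the transcripts of C1ra, 35.9% also occur in other genes, mostly in its copy C1rb. For C4b, 15.2% occur in C4a. Uniquely mapped reads thus come from the rest of each gene. The exons of Cfb overlap those of the readthrough gene Gm20547 over 79.5% of their length and those of C2 over 42.8%. C1s1 overlaps the antisense gene Gm16567 over 18.4% of its exon bases, and whether the counting used strand is not given in the sources used here.

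C3, the component on which all pathways converge, was the most strongly raised complement gene among those above 3 reads in every group. Its means were 7.64 log2 RPM in WT control, 7.58 in KO control, 9.88 in WT colitis and 9.21 in KO colitis. The control means lay close together, and the WT colitis mean was the higher of the colitis pair. C3 rose 4.73-fold in WT and 3.09-fold in KO. Cfb, the protease of the alternative pathway, rose by 0.69 in WT and 0.63 in KO from a control level of 7.62 and 7.75. Cfp, properdin, which stabilizes the convertase, rose by 1.00 and 0.78.

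C6, a component of the membrane pore, was barely detected in control. Its means were −2.23 log2 RPM in WT control, −1.65 in KO control, 2.10 in WT colitis and 1.26 in KO colitis. It was at least 14.4-fold higher in WT colitis than in control, and 7.54-fold higher in KO, where the control mean was equivalent to 3.11 reads per library. C6 was the only terminal component among the members.

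Among coagulation genes, F10 stood out. Factor X, the protease that makes thrombin, had means of −1.81 in WT control, −3.01 in KO control, 2.37 in WT colitis and 1.13 in KO colitis. Both controls were at or under 3 reads per library, and the colitis means were equivalent to 41.4 and 21.6 reads. Against the 3-read level, F10 in colitis was at least 17.4-fold higher in WT and, in KO, at least 7.14-fold higher. F5, the cofactor of factor X, rose from 1.43 to 2.54 in WT and from 1.61 to 2.52 in KO. F3, tissue factor, which starts coagulation, was well expressed in every group (6.34 to 6.96) and rose by 0.36 in WT and 0.62 in KO.

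The anticoagulant genes moved less. Procr, the endothelial receptor of protein C, and Pros1, protein S, were listed in WT alone, with changes of 0.44 and 0.41 there and of 0.14 and 0.23 in KO. Plaur, the receptor of the plasminogen activator urokinase, had means of 4.17 and 4.12 in WT and KO control and of 5.65 and 5.04 in WT and KO colitis, a 2.79-fold rise in WT and a 1.89-fold rise in KO. A2m, a broad inhibitor that traps proteases of all classes, went from −2.62 to 1.80 in WT and from −2.56 to 0.53 in KO. Its control means were under 3 reads, so the lower bounds for A2m were 11.8-fold (WT) and 4.71-fold (KO).

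**Figure D2:**
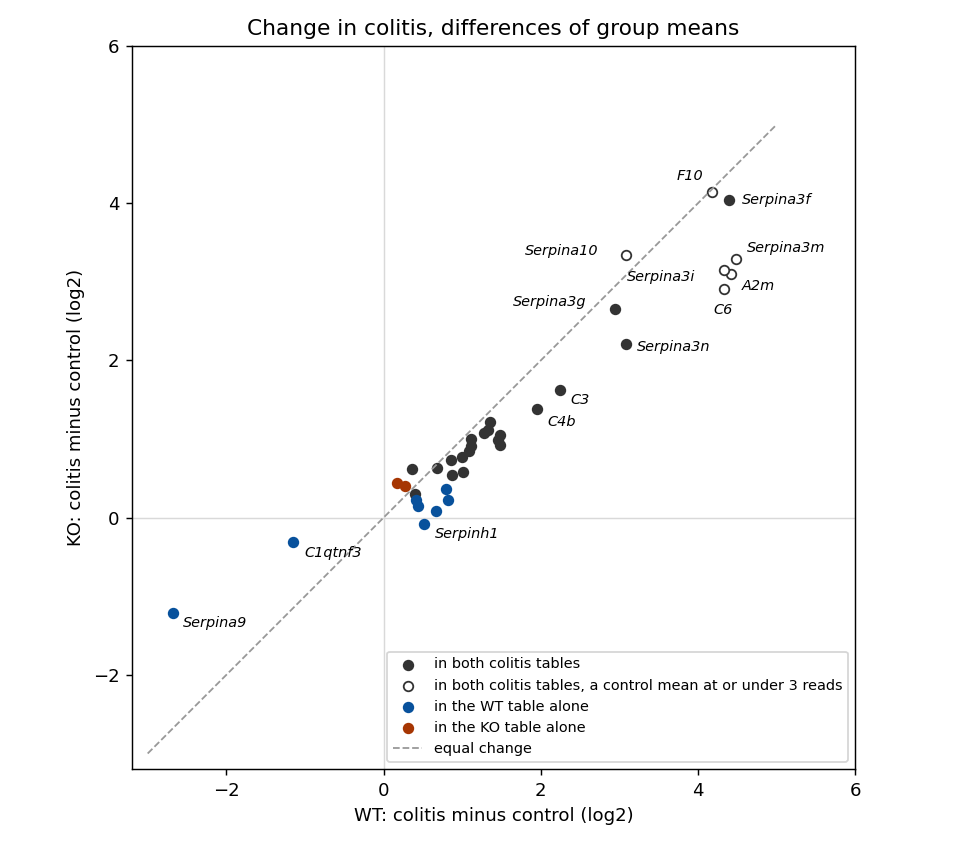
Change of 37 members in colitis (colitis minus control, log2) in WT (horizontal) against KO (vertical). Dark grey points are genes in both colitis tables, blue the WT table alone and brown the KO table alone. Open points have a control mean at or under 3 reads. They are drawn at the deposited difference and not at the lower bound given in the text. The dashed line marks equal change. Most of the rising genes lie under the line, C3 (2.24 and 1.63) among them, while F3 (0.36 and 0.62) lies over it.

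Serpins of clade A changed strongly. The 7 members lie within 800 kb on chromosome 12, and 6 of them rose in both genotypes. The exception was Serpina9, which lies between Serpina10 and the Serpina3 genes. The 5 Serpina3 genes are mouse copies of the gene for antichymotrypsin, an acute phase inhibitor of chymotrypsin-like proteases. They share few exact stretches of 100 bases with other genes (0.20% to 6.09% of the stretches of each gene), and the model of Serpina3m spans that of Serpina3k.

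The Serpina3 genes differed widely in level and less in how far they rose. Serpina3n, an inhibitor of granzyme B and leukocyte elastase, was by far the most abundant per kb, at 4.56 log2 RPM per kb in WT control, 4.41 in KO control, 7.64 in WT colitis and 6.62 in KO colitis. Its group means were 5.60, 5.45, 8.68 and 7.67 log2 RPM, an 8.46-fold rise in WT and a 4.63-fold rise in KO. Serpina3g, an inhibitor of cathepsins known from lymphoid and myeloid cells, had means of 3.13, 2.95, 6.06 and 5.59, with rises of 7.66-fold and 6.27-fold.

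The other 3 were low or close to absent in control. Serpina3f had means of 0.11 in WT control, −0.53 in KO control, 4.50 in WT colitis and 3.51 in KO colitis, so it rose 21.0-fold in WT and 16.5-fold in KO. Serpina3m had means of −1.75, −2.04, 2.73 and 1.25, with lower bounds of the rise of 22.4-fold for WT and 7.76-fold for KO. Serpina3i had means of −3.49, −3.34, 0.84 and −0.19, or at least 6.05-fold and at least 2.86-fold. Its colitis means were equivalent to only 14.4 and 8.68 reads per library.

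Since these neighbours rose together, the 150 bases before the start of 4 of them are shown, from RefSeq on GRCm38.p6, with motif matches in capitals. The motifs searched on both strands were the STAT motif TTCNNNGAA, the C/EBP motif TTGCNNAA, the AP-1 motif TGANTCA and the kappaB motif, which are sites of factors used in acute phase and inflammatory signaling.
Serpina3f (chr12:104214394-104214543, plus strand): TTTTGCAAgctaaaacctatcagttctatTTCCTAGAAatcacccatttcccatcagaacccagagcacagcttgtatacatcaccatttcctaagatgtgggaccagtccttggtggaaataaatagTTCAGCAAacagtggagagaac
Serpina3g (chr12:104235997-104236146, plus strand): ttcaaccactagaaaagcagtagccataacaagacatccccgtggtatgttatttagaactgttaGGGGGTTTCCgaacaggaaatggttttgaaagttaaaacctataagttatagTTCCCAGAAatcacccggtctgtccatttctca
Serpina3i (chr12:104262972-104263121, plus strand): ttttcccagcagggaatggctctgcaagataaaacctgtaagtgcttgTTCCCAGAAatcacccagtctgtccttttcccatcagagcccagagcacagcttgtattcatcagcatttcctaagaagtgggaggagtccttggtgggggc
Serpina3n (chr12:104406558-104406707, plus strand): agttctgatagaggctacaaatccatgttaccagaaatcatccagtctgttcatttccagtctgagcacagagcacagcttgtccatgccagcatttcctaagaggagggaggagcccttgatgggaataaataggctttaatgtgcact
In gapped global alignments (match 1, mismatch −1, gap opening −3, gap extension −1), Serpina3f and Serpina3i were identical at 107 of the 150 bases (71.3%), Serpina3f and Serpina3n at 101 and Serpina3i and Serpina3n at 100, while Serpina3g matched each of the others at 69 to 74. Gaps raise such counts, and without gaps the pairs were identical at 28 to 46 positions. The start used lay 98 bases from the deposited gene start for Serpina3g, 21 for Serpina3n and 0 for Serpina3f and Serpina3i. The stretches are thus not counted from like points. The lower identity of Serpina3g and the place of its STAT motif depend on the start used.

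The STAT motif stood in 3 of the 4 stretches, from 121 to 113 bases before the start in Serpina3f, from 102 to 94 in Serpina3i and from 33 to 25 in Serpina3g. Serpina3f held the C/EBP motif at 2 places and Serpina3g the kappaB motif once, from 85 to 76. None of these letters occurred in the stretch of Serpina3n. Over the windows from 250 bases before to 50 bases after the start, which were at hand for 27 of the members, 7 held the STAT motif (25.9%, beside 8.30% of all 32851 windows), 6 the C/EBP motif (22.2% beside 10.8%), 5 the AP-1 motif (18.5% beside 7.81%) and 4 the kappaB motif (14.8% beside 4.51%). The 7 with the STAT motif include Serpina3f, Serpina3g and Serpina3i, neighbouring copies with like letters around the motif, so they are not separate cases. The 4 with the kappaB motif are C1qc, Serpinh1 and the neighbouring copies Serpina3g and Serpina3i, which may not be separate cases either. Each member had a single window, while the 32851 are all windows at hand and not only those of genes in the tables. For C3 the same stretch is shown because C3 was the most abundant strongly raised complement gene, with its C/EBP match from 45 to 38 bases before the start in capitals.
C3 (chr17:57228137-57228286, minus strand): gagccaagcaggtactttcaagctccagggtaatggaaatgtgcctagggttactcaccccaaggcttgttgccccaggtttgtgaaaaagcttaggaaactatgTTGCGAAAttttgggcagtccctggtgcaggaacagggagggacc
Binding of these factors was not measured, and the matches are only a description of the letters.

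Serpina10 and Serpina9, in the same cluster, went different ways. Serpina10, the inhibitor of activated factor X that depends on protein Z, had means of −2.39 and −1.95 in WT and KO control and of 0.69 and 1.38 in WT and KO colitis. Its rise was at least 5.45-fold in WT mice and, in KO mice, at least 8.48-fold, and it was the only strongly raised clade A gene with the higher mean in KO colitis. Serpina9, known from germinal center B cells, had means of 1.95, 2.13, −0.73 and 0.92. It fell by 2.68 in WT and was not listed in KO, where the difference of the means was −1.21.

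**Figure D3:**
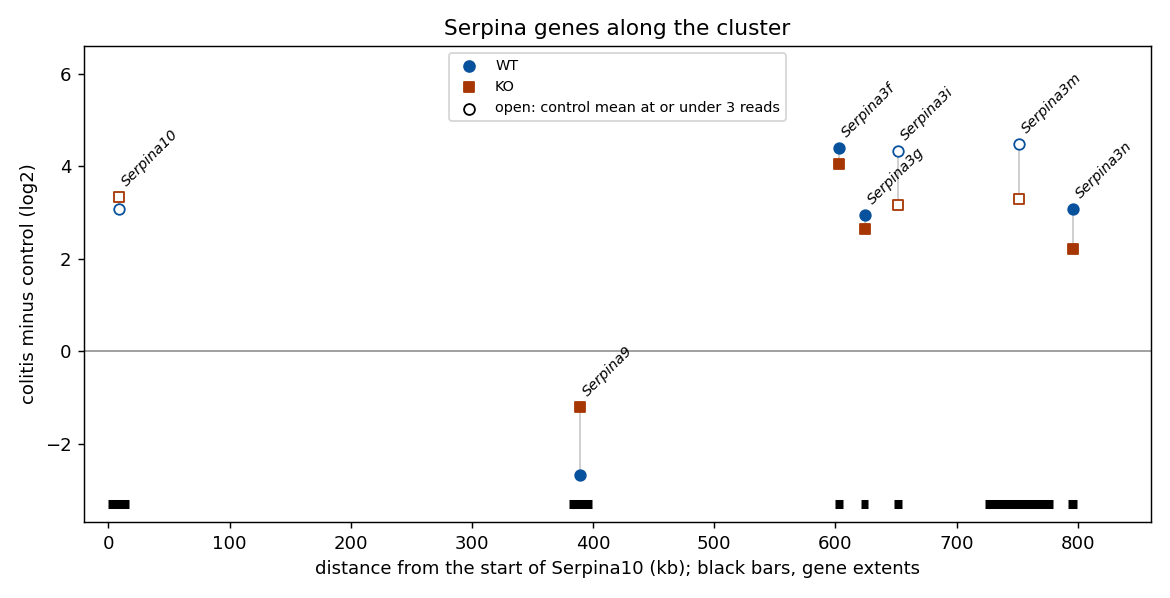
Change in colitis (colitis minus control, log2) of the 7 Serpina genes against their distance in kb from the start of Serpina10. Blue circles are WT and brown squares KO, open where the control mean was at or under 3 reads. Open symbols are drawn at the deposited difference and not at the lower bound given in the text. Serpina3f, Serpina3g and Serpina3n at the right rose by 2.94 to 4.39 in WT, and Serpina9 is the only gene under the zero line.

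Serpins of clade B, which act inside cells, changed less. Serpinb1a, an inhibitor of neutrophil proteases, had the highest level per kb of all members (8.43 log2 RPM per kb in WT control) and changed little, by 0.27 in WT and 0.41 in KO, where alone it was listed. Serpinb6b had means of 2.31, 2.65, 3.77 and 3.65, a 2.74-fold rise in WT and a 1.99-fold rise in KO. Serpinb9, the inhibitor of granzyme B, rose by 0.86 and 0.73, and Serpinb5, maspin, an epithelial serpin, by 0.40 and 0.30.

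Serpins of clades E to H act outside cells or on collagen. Serping1, the C1 inhibitor that shuts off C1r and C1s, rose by 0.86 in WT and 0.55 in KO. Serpine2, a thrombin inhibitor of stroma, and Serpinf1 were listed in WT alone, with changes of 0.80 and 0.67 there and of 0.37 and 0.09 in KO.

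Serpinh1 was the only member in a table of KO against WT. This gene encodes a chaperone that collagen needs to fold, and does not inhibit proteases. Its means were 7.68 in WT control, 7.55 in KO control, 8.19 in WT colitis and 7.47 in KO colitis. The control groups and KO colitis lay close together and WT colitis lay above them. Serpinh1 rose in WT by 0.51, was not listed in KO (−0.08), and was listed as lower in KO colitis than in WT colitis, by 0.72. The 5 fibroblast markers changed by 0.64 to 1.23 in WT and by 0.27 to 0.89 in KO, with the same change of 0.64 in both genotypes for Dcn.

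Of the 39 genes, 4 were members by name only, since their products carry a C1q-like domain or bind C1q and are not components of complement. C1qbp, a mitochondrial protein, was listed in KO alone (0.44, with 0.17 in WT). C1qtnf3 fell in WT, from 5.19 to 4.05, and was not listed in KO, where its means were 5.06 and 4.75. C1qtnf7 was listed in WT alone (0.82, with 0.22 in KO), and C1qtnf5 was higher in both (1.00 and 0.58), but all of its exon bases also belong to Mfrp.

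Without colitis none of the 39 members was in the table of KO control against WT control (0 of 39, with 0.890% of all genes listed), and the median difference was −0.02. The means differed by at least 1 log2 for 1 member, F10 (1.82% of all genes), for which both means were at or under 3 reads. The difference for Serpina3f was −0.64.

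In colitis 1 member, Serpinh1, was listed as different between the genotypes, and 1.08% of all genes were listed. The means of 6 members differed by at least 1 log2 (15.4%, beside 4.39% of all genes). They were lower in KO for Serpina3m (by 1.48), A2m (−1.27), F10 (−1.24), Serpina3i (−1.03) and Serpina3n (−1.02), and higher in KO for Serpina9 (1.65). None of these 6 was listed, so their differences are not shown to exceed the spread between mice. The median difference over the members was −0.25, beside −0.01 over all genes, and 29 of 39 had the lower mean in KO, beside 52.6% of all genes. Being listed through WT favours this direction, since 90.2% of all genes listed as rising in WT alone had the lower mean in KO. Among genes listed as rising in both genotypes it was 78.6% of the members and 62.6% of all genes.

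**Figure D4:**
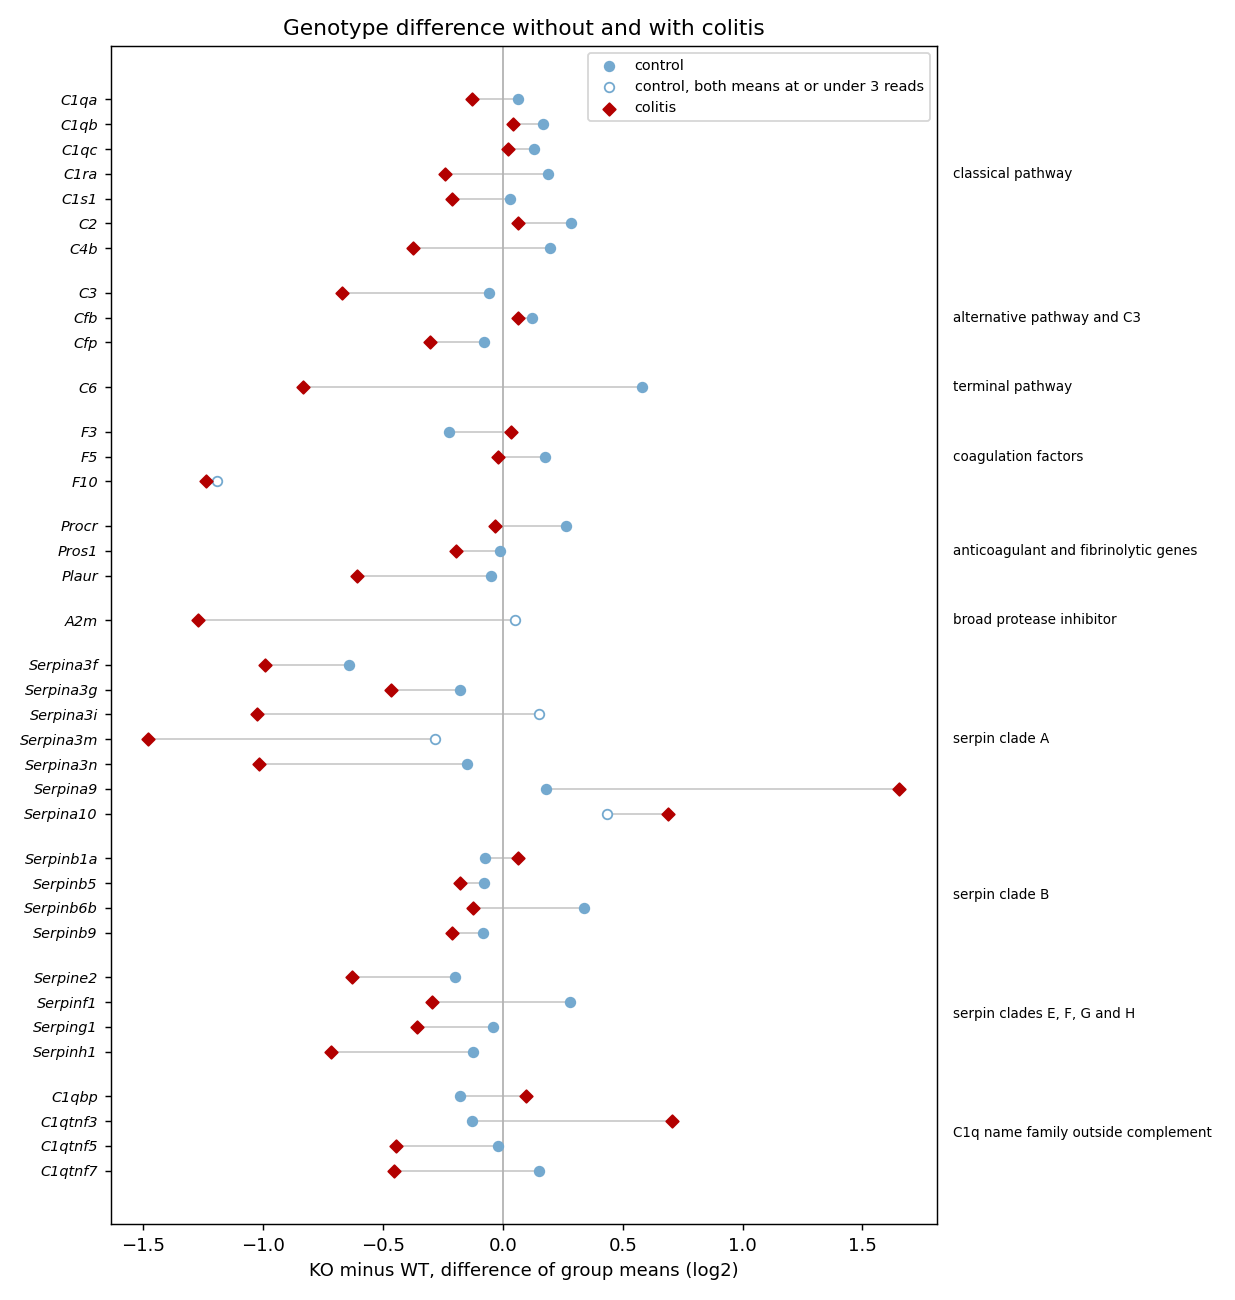
Difference of the group means between genotypes (KO minus WT, log2) for 37 members in control (blue circles, open where both means were at or under 3 reads) and in colitis (red diamonds). The red diamonds lie left of zero for 27 of 37 members, and only Serpinh1 is listed in a genotype table.

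The change in colitis was set beside itself in each genotype. The KO change minus the WT change was negative for 32 of 39 members, beside 52.7% of all genes. Its median was −0.24, beside −0.02. A negative value can mean a smaller rise or a larger fall in KO, and the 52.7% holds both. Serpina9 and C1qtnf3, with the smaller drop of the mean in KO, have positive values. Being listed as rising through WT favours a negative value: of all 502 genes listed as rising in WT alone, 488 had one (97.2%). Of the members 36 were listed in WT and 31 in KO, so 52.7% of all genes is not a like background. Of the 28 members listed as higher in both genotypes, 25 had the smaller rise in KO (89.3%), and of all 1393 genes listed so, 906 did (65.0%). The largest differences of the change were those of Serpina9 (1.48), C6 (−1.41), A2m (−1.32), Serpina3m (−1.20) and Serpina3i (−1.18). The last 4 rest on control means near or under 3 reads. With means raised to 3 reads the differences were −0.94 for C6, −1.32 for A2m, −1.53 for Serpina3m and −1.08 for Serpina3i, and F10, at −0.04 as deposited, came to −1.29, ahead of C6 and Serpina3i. Whether the response differs between genotypes was not tested. The summed neutrophil and fibroblast markers and Tek were lower in KO colitis than in WT colitis. Among the neutrophil markers Ly6g had the higher mean in KO colitis, by 0.19, and the others the lower. The sums for macrophages (1431 and 1448 RPM), T cells (13.2 and 13.0 RPM) and smooth muscle (2316 and 2345 RPM) were close in KO and WT colitis. The sums for mast cells (141 and 120 RPM) and liver (32.0 and 17.7 RPM) were higher in KO colitis. Most of the mast cell sum is Kit, with a mean higher by 0.25 in KO colitis. The other mast cell markers differed by −0.79 (Mcpt4) to 0.19 (Mcpt2). None of the markers was listed between genotypes.

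By role, the median difference of the change was −0.22 in the classical pathway, where all 7 genes rose less in KO. All 7 also had the higher mean in KO control (median difference 0.17), and 4 of 7 had the lower mean in KO colitis (median difference −0.13). For the alternative pathway and C3 the difference was −0.61 for C3, −0.22 for Cfp and −0.06 for Cfb. In KO colitis C1qb, C1qc, C2 and Cfb had means within 0.10 of those in WT colitis, whereas C3 was lower by 0.67 and C4b by 0.38.

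Other genes of the same pathways were examined from 2 lists. Of 31 complement receptors and further complement genes, 12 were in the tables. In WT 10 of them were listed as higher and 1 as lower, and in KO 8 as higher and 1 as lower. The receptors of complement fragments rose in both genotypes: C3ar1, the receptor of the C3a fragment, by 1.53 and 1.42, C5ar1, the receptor of C5a, by 0.91 and 0.68, and the integrin chains of complement receptors Itgb2, Itgam and Itgax by 1.09 to 1.65 in WT and 0.92 to 1.53 in KO. Cd55, which protects cells from complement, rose by 0.73 and 0.32, Cd93 by 0.59 and 0.44 and the scavenger collectin Colec12 by 0.86 and 0.76. The lectin pathway genes were mixed. Masp1 rose in WT alone (1.09, with 0.26 in KO), Colec10 fell in WT alone (−1.13, with −0.70 in KO), and Masp2 fell in KO alone (−1.23, with −0.80 in WT).

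Of 35 further coagulation and fibrinolysis genes, 6 were in the tables, all 6 listed as higher in WT and 2 in KO. The 2 listed in both were Tgm2, a transglutaminase (1.49 and 0.69), and Mcfd2, which helps to export factor V (0.33 and 0.28). The kininogen gene Kng2 (2.10 in WT and 1.63 in KO) and the thrombin receptor gene F2rl2 (1.76 and 0.60) were listed in WT alone, both from low control means (Kng2 was under 3 reads in KO control). The fibrinogen genes Fga, Fgb and Fgg and the prothrombin gene F2, which are typical of liver, were not in any table.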

How the data were processed

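Whole colon RNA-seq libraries of mice without colitis (3 WT, 3 KO) and with colitis (5 WT, 5 KO) were grouped by their labels, which number the libraries within each group. The authors mapped reads to GRCm38 with HISAT2 (version 2.1.0), kept unique reads, removed reads over annotated rRNA because of contamination in some libraries, counted reads over exons of merged transcripts in SeqMonk and called genes with DESeq2 at a false discovery rate of 0.05. The 4 deposited tables hold the called genes of one comparison each, with group means as log2 RPM, not per gene length, and the authors' adjusted p-value, which was not used. Genes called in no table were not analysed here, so 5171 is the number of genes in the tables and not of genes tested by the authors. The authors had replaced a count of 0 by 0.9 before taking logarithms, as the lowest means show.

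Differences of the deposited log2 means were taken with pandas (version 2.3.3) in Python (version 3.11.15). No test, SD or adjusted p-value was computed, since values of single libraries were not used. Library sizes came from the lowest mean of each group (10.1 M and 9.77 M reads in WT and KO control, 8.005 M and 9.87 M in WT and KO colitis). The low means (42 to 119 per group) were then compared with the steps that whole reads give. All lay on a step within 0.005 log2, but bands of that width cover 21.0% of the range in the control groups and 48.0% in the colitis groups. A tolerance of 0.0005, tried after this result was seen, again held all of them, with bands covering 2.17% and 5.95%. The tolerance enters no other value. The 3-read floors cover counting error only. The scripts were tested on simulated data.

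Of the members, 38 had identical coordinates and strand in GENCODE M21, which gave exon lengths and overlaps, and C6 was matched by symbol. The members, roles and gene lists were chosen with earlier results of these data known. Genes were described in full where they were listed between genotypes, where the mean of both colitis changes was at least 1 log2 in size, or where the 2 changes differed most (5 genes). Of the members, 2 are counted in the totals but not reported here by name.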

Additional observations from a re-analysis of the deposited data

How the results depend on the processing

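Over the 11 medians and counts of members, 78 alternatives were computed, of which 61 stayed within 0.2 log2 or 1.5-fold and 17 moved. The median difference between genotypes in control lay around zero and changed sign, from −0.05 to 0.03 over its alternatives. The other medians kept their sign, with the KO change minus the WT change between −0.29 and −0.21. Centring on the median of all genes in the tables lowered the medians of the colitis change to 0.98 in WT and 0.72 in KO. With only the members in both colitis tables, a choice made after the values were seen, the WT median was 1.40 and 0 members were lower by at least 1 in either genotype. At a threshold of 1.5 log2, 11 members were higher and 1 lower in WT, 10 higher and 0 lower in KO, and 0 differed between genotypes in control and 1 in colitis. At 0.5 log2, 28 members were higher in KO, and 4 and 15 differed between genotypes in control and colitis. Without the genes named after C1q alone, 1 member was lower in WT. Raising low means to 3 reads left 0 members differing in control. Requiring a mean of at least 0 log2 RPM over the groups left 0 in control and 3 in colitis, and leaving out the 5 Serpina3 genes, also chosen after the values were seen, left 3 in colitis.

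No paired analysis was possible because the deposited values are group means, and for the same reason no library was left out. Read counts by sample from the supplement of the study were not used here. The spread between mice was therefore not estimated, and a gene missing from a table is not shown to be unchanged. Members with few reads (C6, F10, A2m, Serpina3i, Serpina3m and Serpina10) have the least certain folds, several of them large.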
